A study of Arabidopsis thaliana with 434 samples.

Results

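ANAC081, better known as ATAF2 (locus AT5G08790), and ANAC102 (AT5G63790) are 2 of the 49 NAC transcription factor genes measured in Arabidopsis leaves on 1 NanoString panel. They were chosen by probe locus and not by a cut on their values, though earlier results of these data were known. Both lie on chromosome 5 in the RefSeq table. Both were among the 47 NAC genes whose mean raw count exceeded the detection limit of 12.6 counts, set from the negative control probes. ANAC081 had a median raw count of 1103 over all samples, and ANAC102 had 1517.

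NAC proteins are plant transcription factors that bind DNA through a conserved N-terminal domain, and many of them act in stress responses and in leaf senescence. ANAC081 and ANAC102 belong, with ANAC002 (ATAF1) and ANAC032, to the small ATAF group. ATAF2 is known for its induction by wounding and pathogens and for links to auxin, brassinosteroid inactivation and chlorophyll breakdown. ANAC102 is known for a part in the tolerance of germinating seeds to low oxygen and in detoxification responses that start from the chloroplast. ATAF1 is known as an activator of senescence genes, and ANAC032 as a stress and senescence regulator.

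The groups were Columbia wild type (Col) and 49 lines with a T-DNA insertion in a NAC gene, all in the Col background, and the leaves were 14, 18, 22 or 26 days old. Col had 10 samples at 14 days and 8 at each later age. The anac092 line had 4 samples per age, and each of the other 48 lines had 2. Sample titles carry a letter and a number that the labels do not explain. Of the 49 lines, 17 carry letter A, 18 letter B, 8 letter C, 5 letter D and 1, anac092, both A and B. Col carries all 4 letters. The anac081 line carries letter C, anac102 letter B, and anac002 and anac032 letter A. The labels name the seed collections but not the alleles or insertion sites, and they do not say whether samples came from separate plants, so p-values measure only the spread between these samples.

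Total counts per sample ran from 31613 to 687229. Normalised counts are raw counts divided by the mean of 4 reference genes (ACT2, ACT7, TUB2 and UBQ10) in the same sample and brought back to the average scale. UBQ10 supplied 80.6% of the reference counts in the median sample. At 18 days the first libraries labelled anac053 and anac055 go against their labels: ANAC053 read 212 in the first library labelled anac053 and 5.35 in the first labelled anac055. Exchanging those labels left the calls below at the same counts. Of 7 listed xylem and phloem NAC genes, which stand for vascular cells in a whole leaf, 5 were above the detection limit and tested. Relative to the reference genes, 4 of these 5 were lower at 26 days than at 14 days and 1 was higher. Over all 47 genes tested, 7 were lower and 39 higher. In whole leaves, fewer cells of a type and less RNA per cell cannot be told apart, and the part of vascular cells in the results below was not tested.

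In Col, relative to the reference genes, both genes were called higher at 22 days than at 14 and 18 days, and at 26 days than at 14 days. The difference between 26 and 18 days was not tested. ANAC102 was lower at 18 days than at 14 days on some scales and not called on others. ANAC081 normalised counts at 14 days ran from 568 through a median of 784 to 1997. At 18 days they ran from 655 through 754 to 1077. At 22 days the range was 788 to 2191 with a median of 1510, and at 26 days 1341 to 3203 with a median of 1643. All but 1 of the 14-day samples lay below every 26-day sample. The exception was the library Col B1 of 14 days, at 1997, which overlapped the older leaves.

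ANAC081 was 1.16 log2 units higher at 26 days than at 14 days, or 2.23-fold (SE 0.166, edgeR quasi-likelihood test, adjusted p = 7.0e-11). At 22 days it stood 0.78 above 14 days (SE 0.165, edgeR adjusted p = 7.4e-06) and 0.87 above 18 days. The step from 14 to 18 days was -0.09 (SE 0.166, edgeR adjusted p = 0.763). The step from 22 to 26 days was 0.38 (edgeR adjusted p = 0.079), and it was called with the geometric mean of the references (0.45, edgeR adjusted p = 0.048).

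ANAC102 normalised counts ran from 835 through a median of 1343 to 2389 at 14 days. At 18 days they ran from 750 through 1061 to 1483. At 22 days the range was 929 to 2753 with a median of 1727, and at 26 days 1608 to 3235 with a median of 2146. Again 9 of the 10 youngest samples lay below every 26-day sample, and the other was Col B1. The rise from 14 to 26 days was 0.77 on the log2 scale, or 1.70-fold (SE 0.170, edgeR adjusted p = 1.2e-05). At 22 days it was 0.36 above 14 days (SE 0.170, edgeR adjusted p = 0.036) and 0.73 above 18 days. The difference between 18 and 14 days was -0.37 (SE 0.171, edgeR adjusted p = 0.081), and that between 26 and 22 days was 0.41 (edgeR adjusted p = 0.067). The 22-day call was lost without any 1 of Col A2, A3, B2, C1 or D2 (edgeR adjusted p = 0.056 to 0.258). The 18-day difference was called lower without A3 or B2 (edgeR adjusted p = 0.046 and 0.040), with TMM (-0.56, edgeR adjusted p = 0.0012) and with DESeq2 (-0.49, adjusted p = 0.0032). The last step was called without C1 or D2 (edgeR adjusted p = 0.032 and 0.034), with the geometric mean of the references (0.027) and with the references taken without UBQ10 (0.029).

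**Figure D1:**
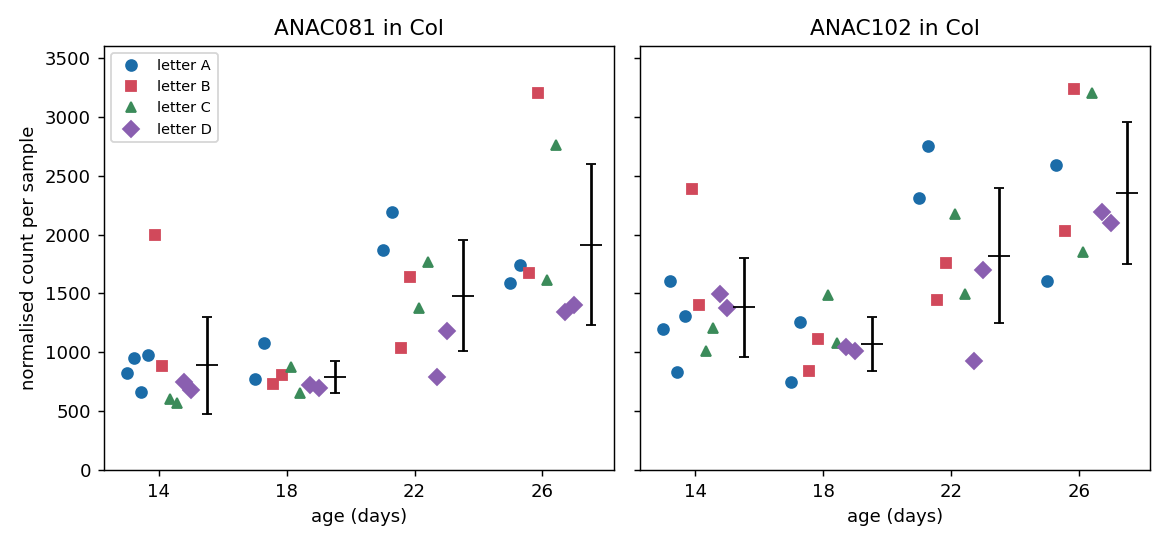
Normalised counts of ANAC081 (left) and ANAC102 (right) in each Col sample against leaf age in days, with marker and colour by title letter and a black bar for mean ± SD (10 samples at 14 days, 8 at each later age). Both genes are higher at 22 and 26 days, and the 14-day library Col B1 stands above the other 14-day samples at 1997 and 2389.

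These rises were shared by most of the panel. From 14 to 26 days 83% of the 47 genes rose, with a median change of 1.12, so ANAC081 ranked 23rd and ANAC102 30th from the highest. From 14 to 22 days 78.7% rose, with a median of 0.78. From 18 to 22 days 68.1% rose, with a median of 0.46, and ANAC081 ranked 11th and ANAC102 19th. From 14 to 18 days 38.3% changed in either direction, with a median of 0.14, which was above both genes. From 22 to 26 days 27.7% did, with a median of 0.29, which was below both.

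The size of the rise depended on the scale. With TMM scaling the panel's median change at 26 days was 0.49, and with DESeq2's size factors it was 0.33. Both scales are computed from the tested NAC genes and the reference genes together. Why the change was smaller on them was not tested. On TMM, ANAC081 was 0.55 higher at 26 days (edgeR adjusted p = 6.6e-04) and ANAC102 0.16 higher (edgeR adjusted p = 0.315). With DESeq2 the values were 0.38 (adjusted p = 0.0034) and -0.016 (adjusted p = 0.914). The 22-day rise of ANAC081 over 14 days was 0.32 on TMM (edgeR adjusted p = 0.058) and 0.26 with DESeq2 (adjusted p = 0.095). From 14 days to 22 days ANAC102 differed by -0.10 on TMM and -0.17 with DESeq2, and neither was called. From 18 to 22 days both genes rose on both scales: ANAC081 by 0.59 and 0.46 and ANAC102 by 0.45 (edgeR adjusted p = 0.011) and 0.32 (DESeq2 adjusted p = 0.047). The rise of ANAC102 over 14 days was thus called relative to the reference genes only, and that from 18 to 22 days on all these scales.

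All 4 ATAF genes rose from 14 to 26 days relative to the references, and on TMM or DESeq2 2 of the 4 did, ANAC032 and ANAC081. ANAC032 was 1.50 higher (SE 0.248) and ANAC002 0.90 higher (SE 0.159), each past the edgeR test. Their median was 1.03, against 1.12 over all genes tested. Among the 7 genes of the SNAC-A stress clade, which holds the ATAF genes with ANAC019, ANAC055 and ANAC072, 7 of 7 rose relative to the references, with a median of 1.16. On TMM or DESeq2 5 of 7 did, where 26 of all 47 genes rose on TMM and 24 with DESeq2.

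ANAC055 and ANAC019, regulators of jasmonate and dehydration responses, rose by 3.59 (SE 0.389) and 2.74 (SE 0.337) on the log2 scale. ANAC072 (RD26), an abscisic acid and drought regulator, rose by 1.07 (SE 0.157). Within the clade, ANAC081 and ANAC102 were thus nearer to ANAC002 and ANAC072 in the size of the change than to ANAC019 and ANAC055.

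The count of ANAC102 over that of ANAC081 in the same library needs no reference gene, and it is used only to follow change, since probes can differ in efficiency. Its log2 value in Col averaged 0.68 ± 0.29 (SD, n = 10) at 14 days and 0.42 ± 0.28 (n = 8) at 18 days. It averaged 0.30 ± 0.28 at 22 days and 0.32 ± 0.27 at 26 days. The ranges overlapped, from 0.26 to 1.09 at 14 days and from 0.01 to 0.71 at 26 days. This ratio is a description with no test.

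**Figure D2:**
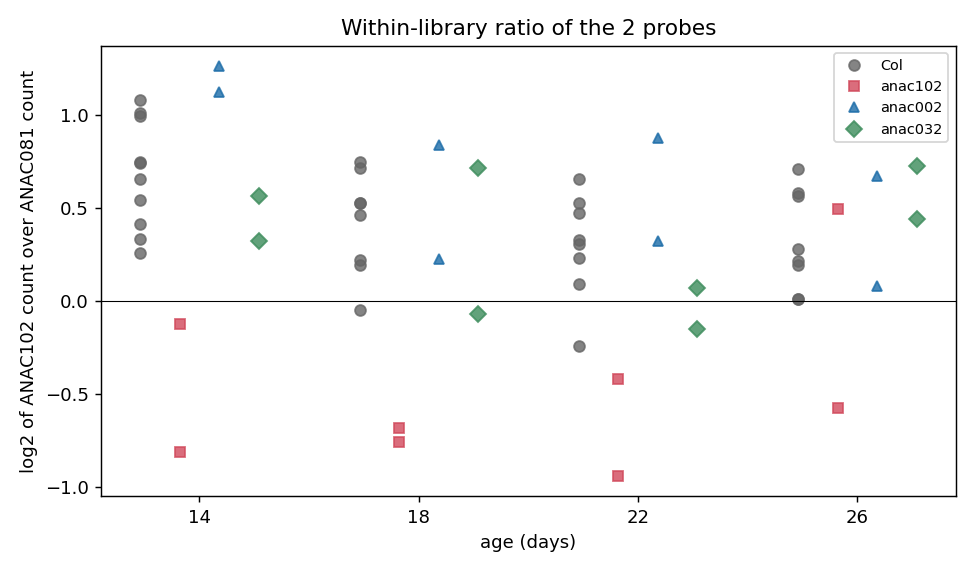
Log2 of the ANAC102 count over the ANAC081 count in each library against leaf age in days, for Col and the lines anac102, anac002 and anac032. The Col libraries average 0.68 at 14 days and 0.32 at 26 days, and 7 of the 8 anac102 libraries lie below every Col library of their age. At 14 days the libraries of anac028 and anac042, not drawn, also lie below every Col library.

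In its own line, ANAC081 was close to the background at 3 ages. The 2 anac081 samples had normalised counts of 3.76 and 3.73 at 14 days, 1.33 and 2.89 at 22 days, and 4.11 and 1.28 at 26 days, from raw counts of 1 to 5. The negative control probes averaged 5.19 raw counts, so these readings set only an upper bound. The summed counts were 0.639% of Col of the same letter at 14 days (exact Poisson interval 0.292% to 1.21%), 0.142% at 22 days and 0.130% at 26 days; these intervals cover counting error only.

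At 18 days the same line read differently. Its normalised counts were 41.4 and 263, from 17 and 206 raw counts, against 880 and 655 in Col of letter C. Together they came to 24.3% of Col (21.2% to 27.8%), and both libraries lay below every Col library of that age. ANAC081 was lower at all 4 ages (edgeR adjusted p = 1.3e-32, 7.4e-09, 6.0e-40 and 1.9e-41 in order of age), with a log2 difference of -2.29 (SE 0.368) at 18 days. That value rests on 2 unlike libraries: it was -1.54 without the first and -4.21 without the second, and it was called in both cases. Over all lines, 42% of the 188 tests of a targeted gene in its own line found it lower.

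ANAC102 was far less reduced in anac102. The 2 samples of the line read 1492 and 683 at 14 days, where Col of letter B read 2389 and 1401. At 18 days the line read 606 and 819 against 841 and 1116. At 22 days it read 937 and 947 against 1444 and 1756. At 26 days it read 2261 and 2068 against 2033 and 3235. The line lay below both Col samples of its letter at 18 and 22 days and overlapped them at 14 and 26 days.

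The log2 difference was -0.82 at 22 days (SE 0.341, edgeR adjusted p = 0.030), the only age that passed. It was -0.68 at 14 days (SE 0.331, edgeR adjusted p = 0.067), -0.41 at 18 days (SE 0.336, edgeR adjusted p = 0.293) and -0.16 at 26 days (SE 0.328, edgeR adjusted p = 0.689). DESeq2 passed 14, 18 and 22 days. The 22-day call was lost without either sample of the line (edgeR adjusted p = 0.133 and 0.121) and without Col B2 (edgeR adjusted p = 0.071). At 14 days the difference was called without Col B2 (-0.81, edgeR adjusted p = 0.041) and without the first sample of the line (-1.32, edgeR adjusted p = 0.014). The labels do not place this probe relative to the insertion, and a transcript counted here need not be intact.

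Within libraries the log2 ratio of ANAC102 over ANAC081 in anac102 was -0.12 and -0.81 at 14 days, -0.76 and -0.68 at 18 days, -0.42 and -0.94 at 22 days, and 0.50 and -0.57 at 26 days. In 7 of the 8 libraries it was below every Col library of its age. The exception was the first library of 26 days. Lying below every Col library was not particular to this line. At 14 days both libraries of anac042 (0.04 and 0.13) and of anac028 (0.05 and 0.18) also lay below the lowest Col value of 0.26. The share over all lines was not counted. No ratio was drawn for anac081, where the ANAC081 count is near background.

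**Figure D3:**
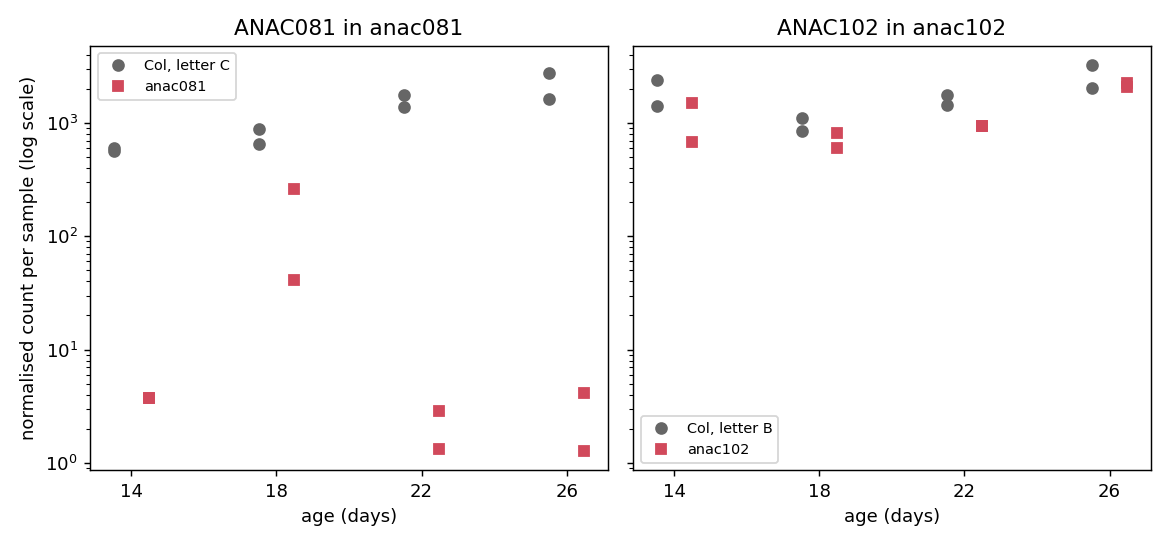
Normalised counts per sample on a log scale against leaf age in days, for ANAC081 in anac081 with Col of letter C (left) and for ANAC102 in anac102 with Col of letter B (right). ANAC081 in anac081 lies between 1.28 and 4.11 at 3 ages and at 41.4 and 263 at 18 days, whereas ANAC102 in anac102 stays between 606 and 2261.

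Neither gene was called changed in the other's line. ANAC102 in anac081 read 1192 and 1251 at 14 days, 1742 and 1279 at 18 days, 2291 and 1772 at 22 days, and 2057 and 2532 at 26 days. Its log2 differences from Col were 0.14, 0.24, 0.15 and -0.14, with SEs of 0.354 to 0.356 and every edgeR adjusted p at or above 0.999. ANAC081 in anac102 read 1624 and 1198 at 14 days and 1025 and 1313 at 18 days. It read 1252 and 1814 at 22 days and 1599 and 3074 at 26 days. At 18 days both libraries lay above both Col samples of letter B, 734 and 806. The log2 difference was 0.57 (SE 0.321, edgeR adjusted p above 0.999). This was not particular to anac102: in 15 of the 18 letter B lines both samples lay above both Col samples, with a median difference of 0.32. At the other ages the log2 difference in anac102 was 0.10, -0.00 and -0.01.

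The anac002 and anac032 lines, which carry insertions in the other ATAF genes, gave no call for either gene at any age. ANAC081 in anac002 differed by -0.46 at 14 days (SE 0.298) and by -0.01, -0.07 and 0.08 at the later ages. ANAC102 in anac002 was above Col in the fit at all 4 ages, by 0.03 to 0.35. In anac032 the differences ran from -0.36 to 0.31 for ANAC081 and from -0.63 to 0.50 for ANAC102. The lowest of these was ANAC102 at 22 days, with readings of 1427 and 1727 against 2311 and 2753 in Col of letter A (SE 0.336, edgeR adjusted p above 0.999). The first reading came from 308 raw counts, in a library with a reference mean of 9286 against 56576 in the second. The gap was not particular to anac032: 16 of 18 letter A lines, counting anac092, lay below Col, with a median of -0.29. In 9 of them both samples lay below every Col sample of their letter.

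Across the 48 lines other than the gene's own, the mean of a line at 14 days ran from 466 to 1411 for ANAC081 (median line 724) and from 557 to 1829 for ANAC102 (median line 1200). By 26 days the line means ran from 1226 to 2992 for ANAC081 and from 1485 to 3677 for ANAC102. The rise from 14 to 26 days seen in Col is thus visible in the median line as well, at 1940 and 2497 at 26 days. At 18 days the median line read 966 and 1235, above its 14-day levels. Col medians were lower at 18 days than at 14 days, at 754 against 784 and 1061 against 1343. In the fit 8 of the 48 lines for ANAC081 and 6 for ANAC102 lay below Col at 18 days, and no line was called.

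Against Col of the same letter and age, calls were found at 14 days only, and all of them were lower. ANAC081 was lower in 6 lines (anac001, anac010, anac014, anac018, anac028 and anac046) and ANAC102 in 5 (anac010, anac018, anac028, anac042 and anac046). All 7 lines concerned carry letter B, and 4 of them were called for both genes. Over both genes these 11 calls came to 11.5% of 96 pairs of line and gene, where 1.02% of all pairs at that age were called lower. At 18, 22 and 26 days neither gene was called in any line, where 0.222%, 0.133% and 0.355% of all pairs were called in either direction. At an unadjusted p under 0.05 edgeR gave ANAC081 2 higher lines at 18 days, 1 higher and 1 lower at 22 days and 0 at 26 days. For ANAC102 it gave 4 higher at 18 days, 1 lower at 22 days and 1 higher at 26 days. DESeq2 called 1 line at these ages, anac090 for ANAC081 at 18 days.

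The strongest ANAC081 difference was in anac010, the line of a xylem-associated NAC gene, at 504 and 427 normalised counts (log2 -1.50, SE 0.334, edgeR adjusted p = 0.0036). In anac014, a line of a membrane-tethered NAC, it read 477 and 464 (-1.49, SE 0.333, edgeR adjusted p = 0.0036). In anac018 (NARS2, known from seed development) it read 471 and 565 (-1.34, SE 0.331, edgeR adjusted p = 0.013). Col of letter B read 1997 and 886, so each of these 6 samples lay below both, and each also lay below all 10 Col samples of that age, the lowest of which was 568.

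ANAC102 was lowest in anac010 as well, at 531 and 584 (log2 -1.64, SE 0.346, edgeR adjusted p = 0.0021). In anac028 it read 602 and 589 (-1.55, SE 0.344, edgeR adjusted p = 0.0036). In anac042 (JUB1, a longevity regulator) it read 626 and 716 (-1.37, SE 0.341, edgeR adjusted p = 0.013). Col of letter B read 2389 and 1401, and the lowest of all 10 Col samples was 835. Both samples lay below all 10 Col samples in 8 of the 11 called pairs. Over all 48 lines, called or not, this held in 6 for ANAC081 and 5 for ANAC102. The called pairs were picked for low values, so this is no separate support.

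These 11 calls rest on 1 wild-type library. Col B1 of 14 days read 1997 for ANAC081, while the other 9 Col samples of that age averaged 767 ± 151 (SD). For ANAC102 it read 2389 against 1270 ± 238. Without it neither gene was called lower in any line, and over all genes the 23 calls of lower expression at 14 days, all in lines of letter B, came down to 1. The anac010 differences became -1.03 for ANAC081 (edgeR adjusted p = 0.360) and -1.32 for ANAC102 (edgeR adjusted p = 0.094).

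That library was high for many genes: 36 of the 47 lay above the mean of the other 14-day Col samples, with a median excess of 0.36 on the log2 scale. ANAC055, ANAC046 and ANAC016 were furthest above, and ANAC081 ranked 5th with 1.40 and ANAC102 13th with 0.94. The median ANAC081 difference over the 18 letter B lines was -0.95 with the library and -0.48 without it. Over letter A lines the median with it was -0.28, over letter C lines -0.01 and over letter D lines -0.06. For ANAC102 the letter B median was -0.99 with the library and -0.67 without it. Over letters A, C and D it was -0.19, 0.18 and -0.24 with the library. Leaving the library out leaves Col B2 as the only Col sample of letter B at that age. The calls also went to 0 with the references taken without UBQ10, and with 1 sample left in every line.

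**Figure D4:**
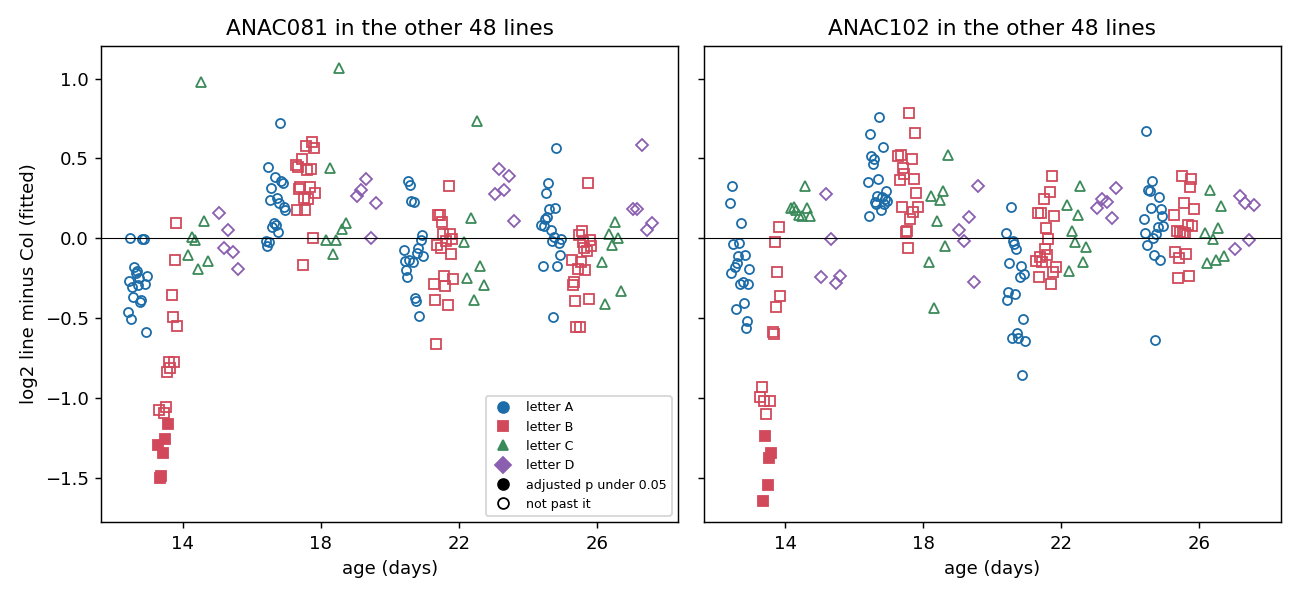
Fitted log2 difference of each of 48 lines (own line left out) from Col against leaf age in days, for ANAC081 (left) and ANAC102 (right), with marker and colour by title letter and filled markers for an edgeR adjusted p under 0.05. The filled markers are all lines of letter B at 14 days, 6 for ANAC081 and 5 for ANAC102, and they lie between -1.64 and -1.16.

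The change of a line's effect with age was called in 5 pairs of line and age beside the targeted gene itself, each against an effect at 14 days that rests on the same Col library. From 14 to 18 days the effect moved up by 1.95 for ANAC081 and 2.16 for ANAC102 in anac010, by 1.80 for ANAC081 in anac014 and by 2.13 for ANAC102 in anac046. From 14 to 26 days it moved up by 1.93 for ANAC102 in anac028 (edgeR adjusted p = 0.042). Over all genes, 0.222% of pairs moved up from 14 to 18 days and 0.0887% from 14 to 26 days. Without Col B1 none of the 5 was called, with the smallest edgeR adjusted p at 0.503. Without Col A1 the number called was 3, without Col B2 it was 12, and with 1 sample left in every line it was 0.

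Averaged over the 4 ages, ANAC081 stood highest in anac090, 0.72 above Col. The 2 samples of this line read 1098 and 1212 at 14 days, 1483 and 1730 at 18 days, 2455 and 2780 at 22 days, and 2571 and 2128 at 26 days. They lay above both Col samples of letter C at 14, 18 and 22 days, and above every Col sample at 18 and 22 days. The log2 differences were 0.98, 1.07, 0.73 and 0.10, and none was called (edgeR adjusted p = 0.195 or above). At 18 days the difference was called without the letter as covariate (1.02, edgeR adjusted p = 0.022) and with DESeq2 (0.90, adjusted p = 0.035).

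ANAC102 in anac090 was 0.25 above Col on average. The next lines for ANAC081 were anac084 (0.33) and anac082 (0.31), and the lowest were anac010 (-0.50), anac014 (-0.40) and anac007 (-0.39), all of letter B. Those 3 include 14-day differences of -1.50, -1.49 and -1.08. With Col B1 left out at every age the averages were -0.52, -0.42 and -0.42, but Col B2 is then the only Col sample of letter B. The median ANAC081 difference over letter B lines then moved from -0.95 to -0.48 at 14 days and from 0.32 to 0.26 at 18 days. It moved from -0.05 to -0.33 at 22 days and from -0.14 to -0.36 at 26 days. The like averages thus hide shifts in both directions and do not show that the low values are free of single Col libraries. For ANAC102 the highest besides anac090 were anac017 (0.33) and anac029 (0.20), and the lowest were anac042 (-0.34), anac083 (-0.34) and anac010 (-0.33). In anac017 the ANAC102 differences were 0.33, 0.65, -0.34 and 0.67 at the successive ages, and in anac083 they were -0.56, 0.21, -0.86 and -0.14. None of these anac017 and anac083 differences passed the test.

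Between Col samples of 1 age the 2 genes varied together past the threshold at 14, 22 and 26 days by Pearson's r. They did not at 18 days, nor at any age by Spearman's rho. Pearson's r of the log2 normalised counts was 0.83 at 14 days (n = 10, permutation p = 0.0053, adjusted over the 4 ages 0.020) and 0.50 at 18 days (n = 8, exact permutation p = 0.201, adjusted 0.201). It was 0.84 at 22 days (n = 8, exact permutation p = 0.0098, adjusted 0.020) and 0.81 at 26 days (n = 8, exact permutation p = 0.018, adjusted 0.024). All tests are two-sided. Spearman's rho was 0.68, 0.52, 0.83 and 0.62, with permutation p adjusted over the ages of 0.069, 0.197, 0.062 and 0.153 (exact at the last 3).

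These relations rest on few samples. Without the 2 samples farthest from the median of ANAC081, r was 0.64, -0.27, 0.44 and 0.05 at the successive ages, with an exact permutation p adjusted over the ages of 0.359 or above. At 14 days r was 0.57 without Col B1 (exact permutation, adjusted p = 0.144), and without Col A2 the adjusted p was 0.054 at 14, 22 and 26 days. The 22-day relation also missed the threshold without B1 or D1 (r = 0.83 and 0.66), and the 26-day one without B1, B2 or C2 (r = 0.81, 0.71 and 0.73). Taken as deviations from the mean of the letter, r was 0.86, 0.96, 0.52 and 0.87. Permuting within letters cannot give a p below 0.125 with 8 samples, and none passed after adjustment.

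Over 418 libraries of Col and of all lines but anac081 and anac102, the deviation of a library from the mean of its group could be set side by side for both genes. Pearson's r was 0.68, and by age 0.76, 0.49, 0.72 and 0.67. Spearman's rho was 0.65, and by age 0.62, 0.49, 0.71 and 0.70, lower than r at 14 days, where 3 libraries lie far from the rest. A higher r was found in 12 of the 1081 pairs of tested genes, and the median over pairs was 0.17. By age the number of pairs with a higher r was 9, 95, 24 and 94, and at 26 days it was 177 with TMM and 243 with DESeq2's size factors. In a line with 2 samples the 2 deviations mirror each other and are not independent values. That holds for the 2 anac056 libraries among the 3 far ones at 14 days. The libraries also share the reference denominator, RNA input and title numbers, so these values are given with no test.

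The value depended on the scale. With TMM r was 0.58 and with DESeq2's size factors 0.50, where 18 and 33 pairs were higher. Relative to the mean of the other NAC genes in the same library, r was 0.50. Each gene also followed that mean, with r of 0.64 for ANAC081 and 0.57 for ANAC102. After the mean of each letter and number within age was removed, r was 0.64. At 22 days the libraries numbered 2 read higher than those numbered 1 in 16 of 19 genotypes of letter A for ANAC081 and in 17 of 19 for ANAC102, and their reference mean was 2.32 higher on the log2 scale.

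**Figure D5:**
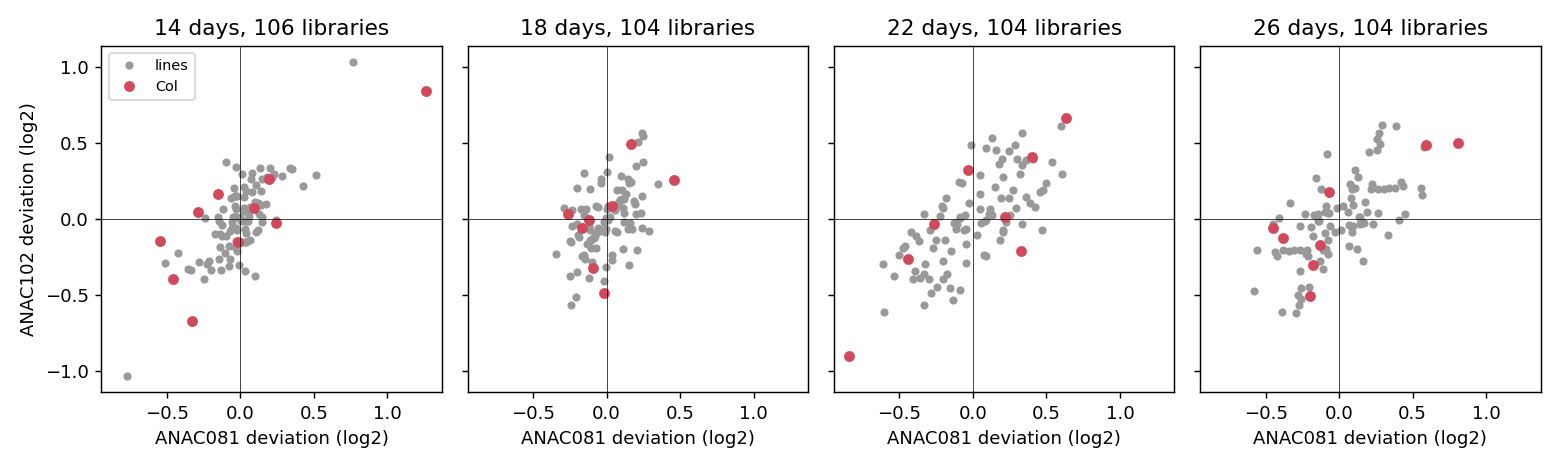
Deviation of each library from the mean of its genotype and age on the log2 scale, ANAC102 against ANAC081, in 1 panel per age (106 libraries at 14 days, 104 at each later age), with Col in red and lines in grey. Points rise together at every age, with r of 0.76, 0.49, 0.72 and 0.67. The 2 points of a line with 2 samples mirror each other and are not independent.

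The gene most like ANAC081 by this measure was ANAC102, followed by ANAC082 (r = 0.59) and ANAC061 (0.55). The gene most like ANAC102 was ANAC081, followed by ANAC002 (0.63) and ANAC019 (0.63). On the TMM scale these values were 0.58, 0.42 and 0.42 for ANAC081 and 0.58, 0.56 and 0.51 for ANAC102. By age, the 2 genes were first for each other at 14 days only. At 18 days ANAC102 was first for ANAC081 (0.49), but ANAC002 was first for ANAC102 (0.54). At 22 days ANAC053 was first for ANAC081 (0.723, against 0.720 for ANAC102), and ANAC019 for ANAC102 (0.76). At 26 days ANAC053 was first for ANAC081 (0.85) and ANAC032 for ANAC102 (0.69). The spread between libraries of a group was 0.33, 0.22, 0.42 and 0.38 on the log2 scale for ANAC081 at the 4 ages, and 0.36, 0.30, 0.41 and 0.37 for ANAC102. The median gene had 0.37, 0.33, 0.42 and 0.42, so at 18 days ANAC081 was among the steadier genes, with 38 of 47 showing a larger spread.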

How the data were processed

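Raw NanoString nCounter counts for 67 probes in 434 leaf samples were deposited by the authors as 4 tables, 1 per age. They also deposited log2 values, whose making the labels do not describe; for ANAC081 these differed from the log2 normalised counts by an SD of 0.0034. For the counting software and the probes' genome build nothing is stated in the labels.

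The main test was the quasi-likelihood test of edgeR 4.0.16 under R 4.3.3. All samples entered 1 model with a term for each combination of genotype and age, the title letter within age as covariate, and an offset from the arithmetic reference mean. Genes were tested above 12.6 mean counts (negative probes' mean 5.19 plus 2 SD of 3.71). Benjamini-Hochberg adjustment ran over 47 genes for ageing, 188 tests for targeted genes and 2256 other pairs at each age, with a threshold of 0.05. Log2 values per sample took a pseudocount of 1. The fit was tested on simulated data. Alternatives were TMM, DESeq2 1.42.0 (on the ages a contrast concerns), limma 3.58.1 on the deposited log2 values, other references, filters and covariates, and samples left out. No pair of samples of a group had identical counts or agreed within sampling noise.

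For each gene and age up to 3 rises and 3 falls past the test with both samples beyond Col of the letter were named, with the 3 highest and 3 lowest lines over ages, the ATAF lines and the 3 most correlated genes. The genes, lists and rules were chosen with earlier results of these data known. Promoter motifs were not searched.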

Additional observations from a re-analysis of the deposited data

Results flagged for a closer look

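Among 24 combinations of a group and a quantity with 4 to 10 samples, 2 held a library far from the others, and chance flags about 1 in 20. Both were Col B1 of 14 days, with normalised counts of 1997 for ANAC081 and 2389 for ANAC102; the gap to the next sample took 0.711 and 0.507 of the range of the 10 samples.

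Line effects differed between ages, by a test of the difference itself, in 8 cases. In anac081 the ANAC081 difference was 5.00 log2 units smaller in size at 18 days than at 14 days. At 22 and 26 days it differed from that at 14 days by -2.18 and -2.31. At 14, 22 and 26 days the line read 1 to 5 raw counts, at the level of the negative probes. Both of these sizes thus rest on counts that cannot be told from background. In anac010 the effect at 18 days minus that at 14 days was 1.95 for ANAC081 and 2.16 for ANAC102. The same difference was 1.80 for ANAC081 in anac014 and 2.13 for ANAC102 in anac046. At 26 days it was 1.93 for ANAC102 in anac028. The last 5 were not called without Col B1.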

How the results depend on the processing

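Of 909 recomputations of 41 results, 794 kept the direction and the side of the threshold (counts within 1.5 times). The ANAC081 rise from 14 to 26 days was called in all 20 alternatives run (0.38 to 1.38). The ANAC102 rise was 0.16 with TMM and -0.016 with DESeq2, not called in either, and its 22-day difference from 14 days turned to -0.10 and -0.17. In anac081 the ANAC081 call held in all 24 alternatives at each age.

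For lower ANAC081 lines, 6 became 2 with TMM, 3 with the geometric reference mean, and 0 without UBQ10 or without the letter; leaving out samples gave 0 to 9. For ANAC102, 5 became 2 with DESeq2, 2 with the geometric mean, 0 without UBQ10 and 2 without the letter; leaving out samples gave 0 to 6. Higher ANAC081 lines went from 0 to 1 with DESeq2 or without the letter, always anac090 at 18 days. Changes of line effect with age went from 5 to 3 with TMM, 0 with the geometric mean or without UBQ10, 1 without the letter and 3 with limma; leaving out samples gave 0 to 12. Leaving out a sample of every line leaves 1 per group, assumed to vary like the others.

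With the replicate block (letter and number), lower ANAC102 lines numbered 10, higher ANAC081 lines 1 (anac090 at 14 days) and changes with age 20, and ANAC102 in anac102 at 14 days was called (-0.76). In Col the block also called the step from 22 to 26 days for ANAC081 (0.37, edgeR adjusted p = 0.023) and ANAC102 (0.40, 0.019), and the lower ANAC102 level at 18 days (-0.34, 0.035). The number need not pair samples: the difference between numbers 2 and 1 correlated with that of Col over 0.1 in 145 of 200 cases (median 0.31).

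ANAC102 in anac102 at 14 days was also called with TMM (-0.70), DESeq2 (-0.78) and limma (-0.74), and leaving out samples gave -1.32 to -0.36. At 18 days DESeq2 called it (-0.70). At 22 days leaving out samples gave -0.94 to -0.77.

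Correlations in Col missed the threshold at 14 days with DESeq2's scale (0.67), by letter (0.86) and without the 2 farthest samples (0.64). At 22 days they missed it with TMM (0.69), DESeq2's scale (0.70), by letter (0.52) and without the 2 farthest (0.44). At 26 days the values were 0.65, 0.65, 0.87 and 0.051. Leaving out 1 Col sample gave 0.57 to 0.88, 0.66 to 0.93 and 0.71 to 0.88 at these ages. The causes were not tested.

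Exchanging 2 labels of 18 days and leaving out 16 shallow libraries were chosen after seeing the data, as was removing the letter and number from the library correlation. With 2 samples per line and age, 1 Col library can decide a call.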
